A study of Mus musculus with 10 samples.

Results

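Fibrillar collagens are the 8 genes Col1a1, Col1a2, Col2a1, Col3a1, Col5a1, Col5a2, Col5a3 and Col11a1, chosen by symbol from the 19942 gene symbols on the array. Each is measured by 1 probe, so the gene set is 8 of 26423 probes. Left ventricles of male C57BL/6J mice, 8 weeks old at surgery, were collected after transverse aortic banding (TAB), which narrows the aorta and puts the left ventricle under pressure overload, or after a sham operation, at 5 times between day 3 and day 28 (days 3, 5, 7, 14, 28). With 1 sample per operation and day, 5 TAB and 5 sham samples were hybridized in 1 colour (Cy5) to a whole-genome oligonucleotide array. How many mice a sample holds is not given in the sources used here, and the TAB sample of day 14 carries 1 label that reads 15 days. Since no day has a replicate, ratios of a day are given without a p-value, and the 5 days serve as replicates of an average TAB effect.

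Fibrillar collagens are the rope-like proteins that give the interstitium of the heart its tensile strength. In the myocardium they are made mainly by fibroblasts, as chains that are hydroxylated, wound into a triple helix, secreted, trimmed of their propeptides and cross-linked into fibrils. Type I collagen, built from the chains of Col1a1 and Col1a2, and type III collagen, built from Col3a1, form the bulk of cardiac fibrils. Type V chains (Col5a1, Col5a2, Col5a3) and type XI chains (Col11a1) sit inside fibrils and regulate how they start and how thick they become. Type II collagen, encoded by Col2a1, is the main fibrillar collagen of cartilage. Accumulation of these proteins after pressure overload is called interstitial fibrosis.

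A promoter sequence, the stretch just before the annotated transcription start, was at hand in the RefSeq annotation of GRCm38.p6 for 5 of the 8 genes. The 3 printed here are those of a pair of chains that rose after banding with very different promoters (Col1a2 and Col3a1) and of a chain that did not pass the test (Col5a3), whose promoter holds a CCAAT and GC boxes as that of Col1a2 does. Each is the 250 bases before the start, read 5′ to 3′ on the gene's strand, and capitals mark the CCAAT box, the GC box GGGCGG and the TATA letters TATAAA, or their reverse complements.
Col1a2, chr6:4505368-4505617, plus strand: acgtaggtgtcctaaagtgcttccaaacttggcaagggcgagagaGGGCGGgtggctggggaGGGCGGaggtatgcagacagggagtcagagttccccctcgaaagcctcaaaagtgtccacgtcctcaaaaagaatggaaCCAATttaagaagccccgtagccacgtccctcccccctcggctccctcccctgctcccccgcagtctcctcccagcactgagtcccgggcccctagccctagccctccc
Col3a1, chr1:45311288-45311537, plus strand: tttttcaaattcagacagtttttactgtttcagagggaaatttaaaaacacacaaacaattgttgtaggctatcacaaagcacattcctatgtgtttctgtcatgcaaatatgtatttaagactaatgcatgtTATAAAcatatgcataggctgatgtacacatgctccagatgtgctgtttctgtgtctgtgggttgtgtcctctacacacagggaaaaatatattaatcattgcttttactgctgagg
Col5a3, chr9:20815068-20815317, minus strand: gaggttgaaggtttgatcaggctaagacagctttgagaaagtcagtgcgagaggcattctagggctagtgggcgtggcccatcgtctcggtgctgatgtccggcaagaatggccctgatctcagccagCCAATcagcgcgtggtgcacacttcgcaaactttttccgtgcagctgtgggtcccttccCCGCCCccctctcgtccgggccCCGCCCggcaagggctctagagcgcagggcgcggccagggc
These letters and those of 3 further elements were searched on both strands, and in these 3 promoters no match overlapped another. CCAAT, the box bound by NF-Y, lay 109 bases before the start of Col1a2 and 122 bases before that of Col5a3, was present in Col11a1 on the opposite strand, and occurred in 33.8% of the 32851 promoters of the same length. GGGCGG, a GC box, occurred 2 times each in Col1a2, Col5a1, Col5a3 and Col11a1 and in 32.7% of all promoters. Col3a1 held neither and was the only gene of the 5 with a TATAAA match, 117 bases before its start, against 12.4% of all promoters. CAGAC, the core letters of a SMAD element, matched in Col1a2, Col3a1, Col5a1 and Col11a1 and in 42.2% of all promoters. The E-box letters CANNTG matched in Col3a1 and Col5a3 and in 66.2% of all promoters, and the AP-1 letters TGANTCA in none of the 5 and in 6.75% of all. The promoters also differed in base composition, with a GC content of 35.2% in Col3a1, 62% in Col1a2, 62.8% in Col5a3 and 76.4% in Col5a1 against a median of 52.4%. Any link between promoter sequence and the change after TAB was not tested. Col3a1 and Col5a2 are neighbouring coding genes on the same chromosome in this annotation.

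The deposited intensities were scaled to a common median and quantile normalized, so values below are normalized intensities in arbitrary units, comparable between samples for 1 probe and not between probes. Each spot also carries a flag. A negative flag was taken to mean that the scanner software did not find the spot, which is how this software commonly uses it, since its meaning is not stated with the data. On each array 40.2% to 47.3% of spots had such a flag. The Col1a1 probe was not found on any of the 10 arrays, its raw intensity lay between -1 and 6 in both operations, and it was removed by the filter on low values. No level of Col1a1 in the ventricle can be given from this probe, and 7 of the 8 genes were tested.

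Both genes of the main interstitial collagens that could be measured, Col1a2 and Col3a1, were higher after TAB on every day. Col1a2 encodes the alpha 2 chain of type I collagen. Its intensity in the TAB samples was 1956, 2543, 2160, 1287 and 471 in the order of the days. In the sham samples of the same days it was 156, 107, 129, 157 and 108. The sham samples were low and close together, the TAB samples were high from the first day to day 14 and lower on day 28, and the groups did not overlap, the lowest TAB sample being 2.99-fold above the highest sham sample. The TAB over sham ratio was 12.6-fold on day 3, 23.8-fold on day 5, 16.7-fold on day 7, 8.17-fold on day 14 and 4.38-fold on day 28. Averaged over the days, Col1a2 was higher by 3.49 ± 0.35 on the log2 scale (SE, 5 TAB and 5 sham samples), that is 11.2-fold (limma adjusted p = 0.0120). With 50 added to every intensity this effect was 3.07. The largest difference between any pair of sham samples was 0.56 on the log2 scale, below the ratio of each of the 5 days.

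Col3a1 encodes the only chain of type III collagen, the thinner and more compliant partner of type I. Its intensity in the TAB samples was 683, 662, 575, 394 and 99.1 on days 3, 5, 7, 14 and 28. In the sham samples it was 64.5, 11.8, 37.0, 58.8 and 17.5, with the spot of day 5 not found. The TAB samples fell from day 3 onward and most steeply after day 14, and the sham samples varied more than those of Col1a2, but the groups did not overlap. The ratio was 10.6-fold on day 3, 15.6-fold on day 7, and 6.71-fold on day 14. On day 28 it was 5.68-fold, but the sham spot of that day, although found, lay just below the 1st percentile of the found spots on its array (17.5 against 17.8). This percentile lay between 17.8 and 39.5 in normalized units over the 10 arrays and served as a floor for spots that were not found, in 2 ways. Either the dim spot was set at the higher of its own normalized value and the floor, or all such spots were raised to the floor before the quantile normalization, where their ties take an average rank and found spots near the floor shift too. Below, a bound is the lower of both ratios, with no allowance for error in the found spot. The words "raised to the floor" mean the second way, an alternative chosen after seeing the data. For day 5, where the sham spot was not found, TAB was at least 22.1-fold higher. The log2 ratio of day 28, 2.50, became 1.96 with spots not found raised to the floor and 1.14 with 50 added. Those of days 3, 7 and 14 were 3.40, 3.96 and 2.75, and 2.68, 2.85 and 2.03 with 50 added. Col3a1 had an average effect of 3.68 ± 0.48 on the log2 scale (SE, limma adjusted p = 0.0154). With spots not found raised to the floor its effect was 3.35, and with 50 added to every intensity it was 2.45.

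**Figure D1:**
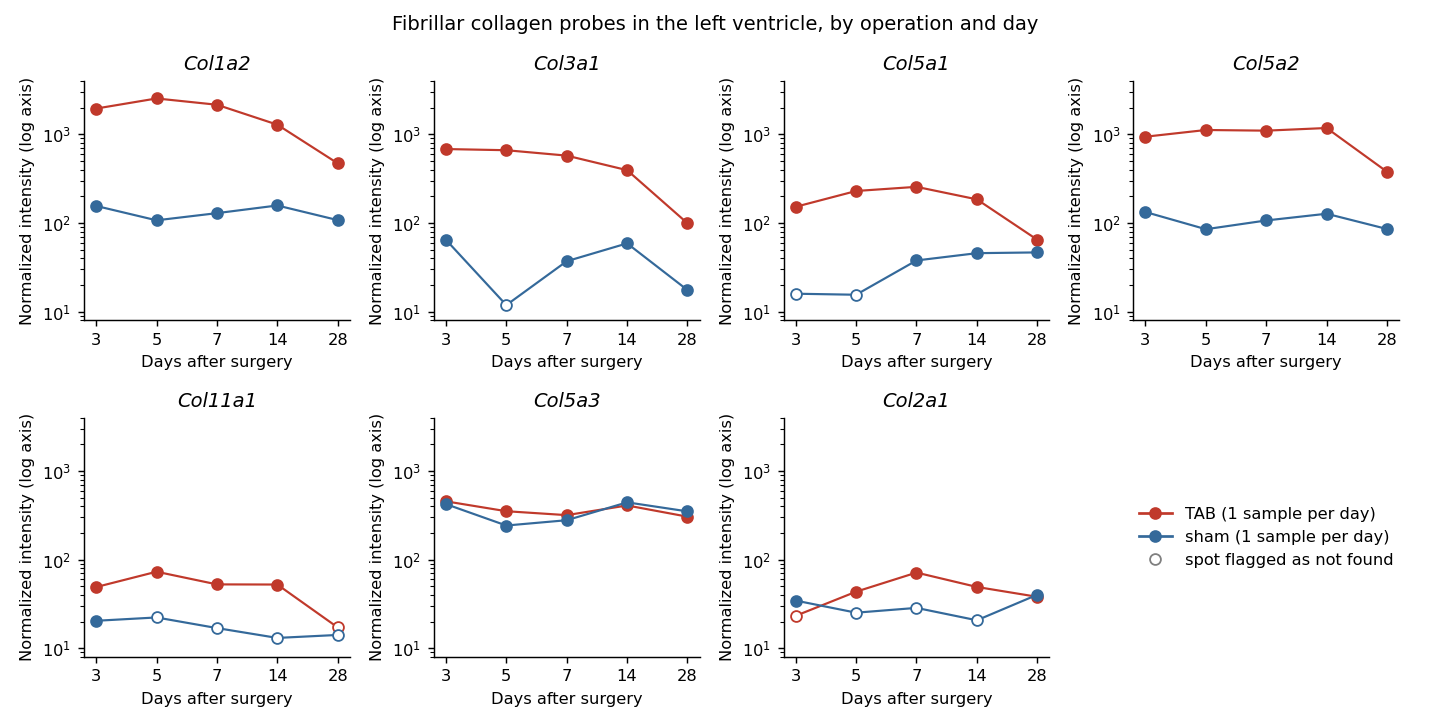
Normalized intensity (log axis, arbitrary units) of the 7 fibrillar collagen genes that passed the filter, by days after surgery, for TAB (red) and sham (blue) with 1 sample per operation and day, and open points where the spot was not found. The TAB and sham samples of Col1a2, Col3a1, Col5a1 and Col5a2 do not overlap, those of Col11a1 overlap only through day 28, and those of Col5a3 and Col2a1 overlap.

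Of the 3 chains of type V collagen, 2 were called. Col5a1 and Col5a2, whose products form the common type V heterotrimer that nucleates fibrils of type I, were higher after TAB, and Col5a3, the chain of a less common type V isoform, was not called. Col5a2 had intensities of 941, 1120, 1101, 1180 and 378 in the TAB samples of days 3, 5, 7, 14 and 28. Its sham samples held 133, 84.9, 107, 127 and 85.4. The TAB samples formed a plateau up to day 14 and stood 2.85-fold above the highest sham sample even at their lowest, on day 28. The Col5a2 ratio was 7.08-fold, 13.2-fold, 10.3-fold, 9.29-fold and 4.43-fold on days 3, 5, 7, 14 and 28, and its average effect of 3.06 ± 0.23 on the log2 scale had the smallest adjusted p of the 7 genes tested (limma adjusted p = 0.00708). With 50 added, Col5a2 had an average effect of 2.58. Its spots were found on all 10 arrays, as were those of Col1a2 and Col5a3.

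Col5a1 lay close to the floor in the sham samples, so its ratios depend on how spots that were not found are treated. In the TAB samples its intensity was 152, 229, 256, 185 and 64.6 from day 3 to day 28. The sham samples held 15.9, 15.5, 37.7, 45.6 and 46.5, and the first pair of these, days 3 and 5, were not found. The TAB samples were highest on day 7 and the sham samples were higher on the later days, so the groups came closest on day 28, where TAB was 1.39-fold above the sham sample of that day, which was also the highest sham sample. TAB was at least 5.97-fold higher on day 3 and at least 7.65-fold higher on day 5, 6.78-fold on day 7 and 4.05-fold on day 14. The log2 ratios of days 7 and 14 were 2.76 and 2.02, and 1.80 and 1.30 with 50 added. With 50 added those of days 3 and 5 were 1.62 and 2.09. The average effect was 2.48 ± 0.48 on the log2 scale (SE, limma adjusted p = 0.0271). It was 2.19 with the spots not found raised to the floor and 1.41 with 50 added, and with probes below 1 kept and set to 1 the adjusted p rose to 0.0555.

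Col5a3 had similar intensities in both operations. Its TAB intensities were 455, 352, 318, 409 and 305 on days 3, 5, 7, 14 and 28, and its sham intensities 423, 243, 279, 443 and 351. The groups overlapped, with TAB the higher on 3 of 5 days. The average effect was 0.10 ± 0.14 on the log2 scale (SE, limma adjusted p = 0.636), with a 95% interval from -0.23 to 0.44, and it was -0.0051 when day 5 was left out. This interval does not overlap those of Col5a1 (1.31 to 3.65) and Col5a2 (2.48 to 3.63); the difference between the chains was not tested.

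Col11a1 encodes a chain of type XI collagen, best known from cartilage, which also co-assembles with type V chains. Its intensity was low throughout: 49.0, 73.0, 52.5, 52.3 and 17.2 in the TAB samples of days 3, 5, 7, 14 and 28. In the sham samples it was 20.4, 22.2, 16.9, 13.1 and 14.1, and of these only the spot of day 3 was found, whereas 4 of the 5 TAB spots were found, all but day 28. The TAB samples of days 3 to 14 lay above every sham sample and that of day 28 lay among them. On day 3 Col11a1 was 2.40-fold higher in TAB, a log2 ratio of 1.26 that was 0.87 with spots not found raised to the floor, and on days 5, 7 and 14 it was at least 2.44-fold, at least 1.55-fold and at least 2.03-fold higher. Neither spot of day 28 was found, and no ratio is given for that day. The average effect was 1.38 ± 0.26 on the log2 scale (SE, limma adjusted p = 0.0254). It shrank to 0.88 with the spots not found raised to the floor and to 0.53 with 50 added, and with probes below 1 set to 1 the adjusted p was 0.0545.

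Col2a1, the cartilage collagen, had TAB intensities of 23.2, 43.5, 71.4, 49.2 and 38.0 on days 3, 5, 7, 14 and 28. Its sham intensities were 34.5, 25.2, 28.5, 20.7 and 40.1. Found spots were those of days 5 to 28 in TAB and of days 3 and 28 in sham, and the groups overlapped. The bounds on TAB over sham were at least 1.45-fold on day 5, at least 2.10-fold on day 7 and at least 1.91-fold on day 14. They allow no error in the TAB spots, whose deposited detection p-values were 0.870, 0.801 and 0.889 on these days, so they do not establish a rise. On day 3 it was the TAB spot that was not found, at the lower of both intensities, and no bound can be given because the floor of that array (39.5) lay above the sham value. On day 28, where both spots were found, the ratio was 0.948-fold. The average effect of 0.54 ± 0.31 on the log2 scale did not pass the test (limma adjusted p = 0.266, 95% interval from -0.22 to 1.31), and it was 0.82 without day 3 and 0.35 without day 7. Of 8 cartilage markers, 5 (Acan, Matn1, Col9a1, Col10a1 and Hapln1) were removed by the filter on low values. Of the remaining 3, Sox9, a transcription factor of cartilage that is also expressed in other mesenchymal cells, was not found in any sham sample and was at least 3.16-fold higher in TAB (limma adjusted p = 0.0121), Comp rose by 1.18 ± 0.28 on the log2 scale, and Matn3 was not found on any array.

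Over the 5 days, limma with day as a block called 5 of the 7 genes tested, all higher after TAB (Col1a2, Col3a1, Col5a1, Col5a2 and Col11a1), against a background of 9.19% of 16113 genes called higher. None of the 7 was lower at an unadjusted p under 0.05. For 4 of the 7 the TAB and sham samples did not overlap, against 9.99% of all genes that were higher without overlap. The median effect of the 7 genes, which is that of Col5a1, was 2.48 on the log2 scale against -0.03 over all genes, and it was 1.41 with 50 added and 1.33 with normexp. With 1 sample per operation and day the adjusted p-values rest on few samples. Leaving out day 28 kept 5 calls, leaving out day 5 or day 14 left 3 (Col1a2, Col3a1 and Col5a2), leaving out day 3 left 1 (Col5a2), and leaving out day 7 left 0 of 7, with adjusted p between 0.0512 and 0.0924 for the 5 genes, all of them still at an unadjusted p under 0.05. The number of calls over all genes dropped alike, from 2749 to 22 without day 7, and the effects of the 5 genes moved little. Col1a2 ranged from 3.22 to 3.83 on the log2 scale over the 5 fits that leave out a day, Col3a1 from 3.15 to 3.98, Col5a2 from 2.89 to 3.28, Col5a1 from 2.13 to 2.98 and Col11a1 from 1.23 to 1.66. The deposited detection p-value was under 0.05 in all 5 TAB samples and 2 sham samples for Col1a2, in 5 and 1 for Col5a2, in 4 and 0 for Col3a1, in 3 and 4 for Col5a3, and in no sample for Col5a1, Col11a1 and Col2a1. These counts are not comparable across arrays, since the sham arrays of days 7 and 28 had 38.6% and 38.0% of probes under 0.05 against 18.8% to 23.5% on the others, and the sham counts of Col1a2 and Col5a2 come from those arrays.

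**Figure D2:**
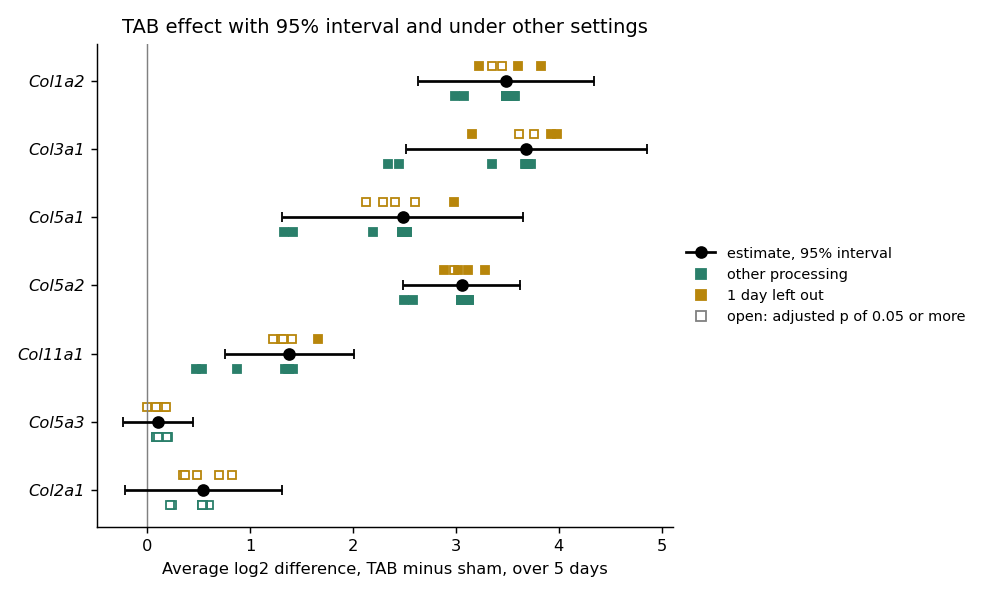
Average log2 difference, TAB minus sham, over 5 days for the 7 genes tested, with the estimate and its 95% interval (black), the estimates under other processing settings (green) and with 1 day left out (ochre), and open squares where the adjusted p was 0.05 or more. Col1a2, Col3a1 and Col5a2 lay above 2 on the log2 scale under every setting drawn, the estimates of Col3a1, Col5a1 and Col11a1 were lowest with normexp and an offset of 50 (2.34, 1.33 and 0.48), and the intervals of Col5a3 and Col2a1 include 0.

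Day by day, a gene was called differentially expressed (DE) if its log2 ratio lay beyond 2 SDs, taken over all genes on that day, which for up-regulation is a log2 ratio above 1.78, 1.93, 1.75, 1.48 and 1.38 on days 3, 5, 7, 14 and 28. This rule has no replicate behind it and gives no p. On day 3, 4 genes were up-regulated (Col1a2, Col3a1, Col5a1 and Col5a2), against a background of 3.1% of all genes. The same 4 were up-regulated on day 5 (background 4.09%) and on day 7 (background 4.08%), and with Col11a1 there were 5 on day 14 (background 3.39%). The call of Col11a1 rests on a sham spot that was not found, and its bound, a log2 ratio of 1.02, lies below the threshold of that day, so it is not settled, although with spots not found raised to the floor the threshold itself dropped to 1.00 and the gene was called. On day 28, 3 were up-regulated (Col1a2, Col3a1 and Col5a2, background 3.41%). Those 3 were up-regulated on all 5 days, as were 56 of the 16113 genes or 0.348%. Col5a1 was not called on day 28, at a log2 ratio of 0.48, but was called there with the mean of the 5 sham samples as reference (1.17), and its call on day 14 was lost with probes below 1 set to 1. Col11a1 was not called on day 3, at a log2 ratio of 1.26, nor on days 5 and 7, where the sham spots were not found either. At a fixed log2 ratio of 1 it was called on days 3, 5, 7 and 14, with the mean of the 5 sham samples as reference on days 5 and 7 (2.10 and 1.63), and with spots not found raised to the floor on day 5 (1.49). Its call on day 14 was lost with 50 added, with normexp and with probes below 1 set to 1. Col5a3 and Col2a1 were not called on any day by this rule. Col2a1 was called on day 7 with spots not found raised to the floor (1.44), and on days 7 and 14 at a fixed log2 ratio of 1.

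The highest TAB sample came on different days for different chains. Col3a1 was highest in the sample of day 3, Col1a2 and Col11a1 in that of day 5, Col5a1 in that of day 7 and Col5a2 in that of day 14, but several neighbouring days were close, and no difference between single days was tested. All 5 genes were lower in the TAB sample of day 28 than in that of day 14, Col1a2 by 2.73-fold, Col3a1 by 3.98-fold, Col5a1 by 2.86-fold, Col5a2 by 3.12-fold and Col11a1, whose spot of day 28 was not found, by at least 2.05-fold. In the sham samples the same step, day 14 over day 28, was 1.46-fold for Col1a2, 0.981-fold for Col5a1 and 1.49-fold for Col5a2. For Col3a1 it was 3.37-fold, with the sham spot of day 28 just below the floor.

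**Figure D3:**
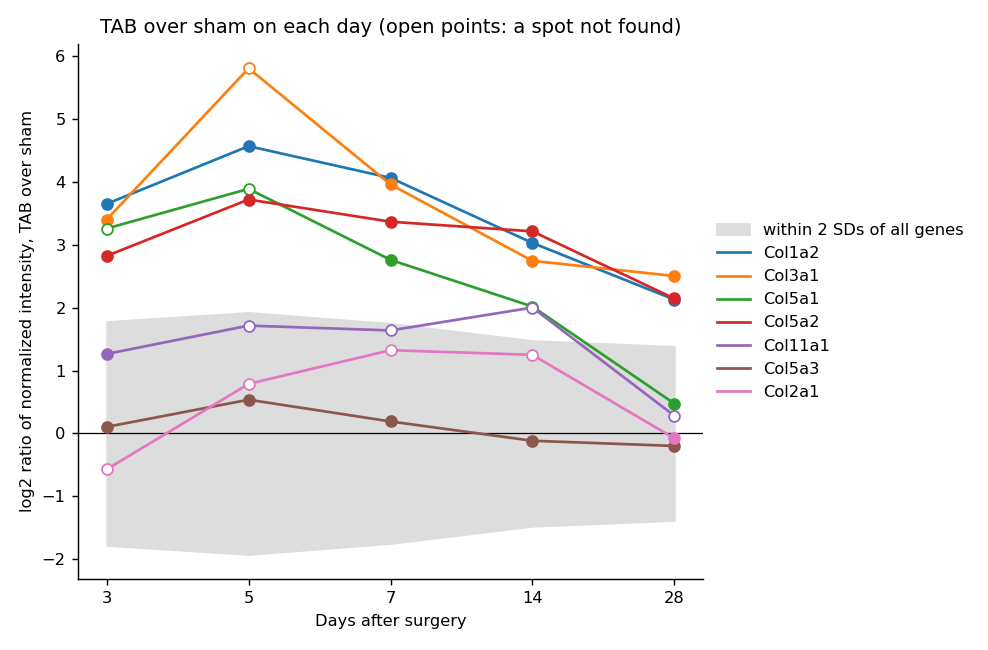
Log2 ratio of normalized intensity, TAB over sham, on each day for the 7 genes tested, with the band of 2 SDs of all genes in grey and open points where the TAB or the sham spot was not found. Col1a2, Col3a1 and Col5a2 stay above the band on all 5 days, Col5a1 enters it on day 28, and Col5a3 and Col2a1 stay inside it.

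Whether the effect was larger in the days of developing hypertrophy, days 3 to 7, than on days 14 and 28 was tested as a difference of the TAB effect between these stages. It was positive, that is larger early, for 6 of the 7 genes. For Col5a1 the mean log2 ratio was 3.30 early and 1.25 late, a difference of 2.06 ± 0.58 (SE, unadjusted p = 0.0160 and limma adjusted p = 0.408). Its early mean includes days 3 and 5, where the sham spots were not found, and the difference was 1.58 with those spots raised to the floor, 1.07 with 50 added, 1.00 with normexp and 1.29 without day 28. For Col1a2 the mean log2 ratio was 4.10 early and 2.58 late, a difference of 1.52 ± 0.41 (SE, unadjusted p = 0.0139 and limma adjusted p = 0.402). For Col3a1 it was 4.39 early and 2.63 late, a difference of 1.77 (limma adjusted p = 0.476), but its early mean includes day 5, where the sham spot was not found, and the difference was 1.66 with spots not found raised to the floor and 1.06 without day 5. For Col5a2 it was 3.30 early and 2.68 late, a difference of 0.62 (limma adjusted p = 0.600) that was 0.42 without day 5, 1.16 without day 14 and 0.090 without day 28. The differences of Col5a3, Col11a1 and Col2a1 were 0.43, 0.40 and -0.07 on the log2 scale, and those of Col11a1 and Col2a1 changed sign when single days were left out (Col11a1 -0.46 without day 28). No gene of the set passed the adjusted threshold, 2 had an unadjusted p under 0.05, and over all genes limma called 0 of 16113 (a background of 0%) while 1766 had an unadjusted p under 0.05. Under the other settings the fit called 0 to 34 genes for this difference, none of them a gene of the set.

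In these whole-tissue samples, a change in the number of cells that make collagen and a change in collagen RNA per cell cannot be told apart. All 8 cardiomyocyte markers, Myh6 and Tnnt2 among them, were found on all 10 arrays of this ventricular tissue, and 0 of 8 were called, with summed intensities of 246506 to 256375 in TAB and 253808 to 279220 in sham and 2 of them lower at an unadjusted p under 0.05. Myl2 was saturated on 9 of the 10 arrays, so its level is not informative, and without it the sums were 181007 to 190880 in TAB and 188308 to 214925 in sham. The counts of the other lists stand beside the 9.19% of all genes called higher. Summed intensities here add probes whose values are not comparable, so they weight bright probes and are not amounts of RNA or cells. Of 6 fibroblast markers tested, 3 were higher after TAB (Thy1, Col6a3 and Lum), with a summed intensity of 23786 to 32975 in TAB and 20489 to 23602 in sham. The brightest probe in that sum was Dcn, at a mean log2 intensity of 14.3 in TAB and 14.0 in sham. Dcn was not called, with an effect of 0.26 on the log2 scale. The probe of Pdgfra, a defining fibroblast marker, was removed by the filter, and Tcf21 and Dpt had effects of 0.24 and 0.13 on the log2 scale without passing the test. Of 4 markers of myofibroblasts and smooth muscle, Postn and Tagln were called higher. Tagln was not found in any sham sample, was found in 4 of 5 TAB samples, and was at least 1.58-fold higher. The summed intensity of the list was 8514 to 18653 in TAB and 2353 to 3258 in sham. The Postn probe alone made up 84.7% to 92.4% of that sum in TAB and 39.8% to 53.6% in sham, so the sum mostly follows 1 bright probe in TAB. Acta2 and Myh11 were not called. All 6 leukocyte markers were higher after TAB, with a summed intensity of 2253 to 5548 against 1421 to 1747, led by Cd68 at 2.01 ± 0.36 on the log2 scale. Of 6 endothelial markers 0 were called, with 1 at an unadjusted p under 0.05 and summed intensities of 5664 to 8123 in TAB and 5465 to 6863 in sham. The part that fibroblast, myofibroblast and leukocyte RNA had in the collagen differences was not tested.

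Genes that build, trim and cross-link collagen are grouped below by the step they serve, as counts called by the same fit, beside the 9.19% of all genes called higher and the median effect of -0.03 over all genes. Of 19 tested genes of chain hydroxylation and folding in the endoplasmic reticulum, 10 were higher and 0 lower (1 was lower at an unadjusted p under 0.05), with a median effect of 0.73 on the log2 scale. Among them Leprel1, a prolyl 3-hydroxylase, rose by 0.90 ± 0.10, Ppib, a prolyl isomerase, by 0.78 ± 0.14, Plod3, a lysyl hydroxylase, by 0.88 ± 0.16 and Fkbp10, a collagen chaperone, by 1.08 ± 0.21 on the log2 scale. The collagen chaperone Serpinh1 had an effect of 1.14 ± 0.31 and missed the threshold (limma adjusted p = 0.0557). Of 6 genes of propeptide cleavage 3 were higher, namely Adamts2, which removes the amino propeptide, by 1.56 ± 0.20, Bmp1, which removes the carboxy propeptide, by 1.05 ± 0.18, and Pcolce, its enhancer, by 1.81 ± 0.22.

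Cross-linking was the step with the largest median. All 5 lysyl oxidase genes were called higher, with a median effect of 3.07 on the log2 scale, or 2.25 with Loxl3, which was not found in any sham sample, at its bound. Lox had an effect of 4.55 ± 0.66 with its spot found in 2 of 5 sham samples, Loxl2 of 3.07 ± 0.55 and Loxl1 of 2.25 ± 0.23, while Loxl3 was at least 2.90-fold higher (limma adjusted p = 0.00430). Of 16 proteins that decorate or bind fibrils, 11 were higher, with a median of 1.36. Periostin (Postn) rose by 3.37 ± 0.23, biglycan (Bgn) by 1.93 ± 0.18 and Col14a1, a fibril-associated collagen, by 1.92 ± 0.21, whereas decorin (Dcn) had an effect of 0.26 ± 0.10 that did not pass. The 3 remaining fibrillar chains on the array, Col11a2, Col24a1 and Col27a1, gave 0 calls and 1 unadjusted p under 0.05, and the last pair were not found on any array.

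Of 6 collagen receptors tested, 5 were higher, with a median effect of 1.09 on the log2 scale, among them Itga11, a collagen-binding integrin chain of fibroblasts, by 1.76 ± 0.16, Mrc2, which takes up collagen fragments, by 1.55 ± 0.22, and the collagen-activated kinase Ddr2, whose spot was found in 2 of 5 sham samples, by 1.19 ± 0.23. Of 11 genes of collagen degradation and its inhibitors, 6 were higher, with a median of 0.92. The inhibitor Timp1 led with 5.02 ± 0.63, ahead of the collagen-degrading proteases Ctsk at 1.58 ± 0.19, Mmp2 at 1.50 ± 0.26 and Fap at 1.23 ± 0.15. Of 16 regulators upstream of collagen transcription, 6 were higher and 0 lower, with a median of 0.43 and 2 lower at an unadjusted p under 0.05. They were the TGF-beta ligands Tgfb2 and Tgfb3, the receptor Tgfbr2, the matricellular factor Ctgf (2.17 ± 0.27), the cytokine Il11 and the tendon and fibroblast factor Scx (1.15 ± 0.19), whereas Tgfb1 had an effect of -0.34 ± 0.12 that did not pass (limma adjusted p = 0.102).

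**Figure D4:**
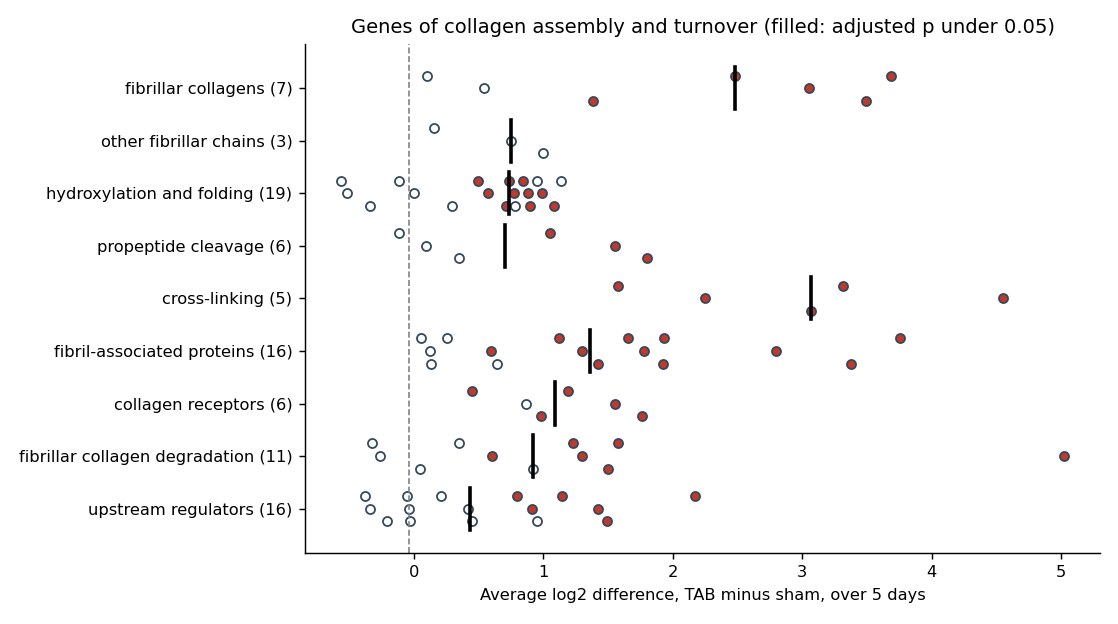
Average log2 difference, TAB minus sham, over 5 days for each tested gene of the fibrillar collagens and of 8 lists of collagen assembly, turnover and control (number of genes in brackets), with filled points for an adjusted p under 0.05, a black bar at each list's median (genes not found in sham at their fitted value) and a dashed line at the median of all genes. The 5 cross-linking genes and 5 of the 7 fibrillar collagens are filled, and no point to the left of the dashed line is.

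The mean profile of the 5 genes found on all 5 TAB arrays (Col1a2, Col3a1, Col5a1, Col5a2 and Col5a3, each centred and scaled) was set against every other gene over the 10 samples. Since these genes were taken by their signal on the TAB arrays and 4 of them were called higher after TAB, a gene that differs between the operations can resemble the profile for that alone. The 6 genes outside the set with the most similar profile were Lamb1, a laminin chain (r = 0.989), Sept11 (0.988), the homeobox gene Meox1 (0.984), the lysyl oxidase Loxl1 (0.983), the adenylate cyclase Adcy3 (0.981) and Megf10 (0.978). These correlations describe 10 samples that share the operation and the day, and carry no test. Meox1, picked for this likeness, had log2 ratios of 2.35, 3.10, 2.48, 1.84 and 1.70 on days 3, 5, 7, 14 and 28. Those of Lamb1, picked likewise, were smaller, at 0.66, 0.92, 0.69, 0.51 and 0.22. Within the profile, Col5a3 had r = 0.542 to the mean and the other genes 0.919 to 0.983.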

How the data were processed

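Intensities of 10 left-ventricle samples (5 TAB, 5 sham, 1 per day) were analysed from 1 table. The authors deposited raw intensity per probe and array from an Agilent scanner and GenePix, with values below 0 that point to a background subtraction whose method is not given in the sources used here, and with no scaling between arrays. Raw array medians ran from 34 to 57. The authors also deposited a detection p-value, computed in a way that is not given, and a spot flag, whose negative value was read as a spot not found. The number of arrays limits precision, and dim spots limit the ratios. Whether a sample is 1 mouse or a pool is not known. The p-values of the average effect rest on how the TAB minus sham difference varied over the 5 days. Those of the contrast of early with late days rest on its variation among days of the same stage. Either spread includes change with time and is not a spread between mice.

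Arrays were scaled to a median of 47, probes with a scaled intensity under 1 in any sample were removed (6447 of 26423), and a quantile normalization put the remaining 19976 on the median value of every rank, with ties averaged. Values went to log2, and of several probes per gene the one whose absolute log2 ratios summed highest was kept, which left 16113 genes. 3633 probes carry no symbol. The average TAB effect and the contrast of early (3 to 7) with late (14 and 28) days were fitted over all genes with limma 3.58.1 (lmFit, eBayes) in R 4.3.3, blocking on day, and p-values were adjusted over all genes by Benjamini-Hochberg at 0.05. The block follows the study's ratios of the same day. After subtracting each group's mean, the TAB and sham sample of 1 day correlated over genes with r between -0.0165 and 0.113. The script was tested on simulated data with known changes. Tables and figures were made with Python 3.11.15, numpy 2.4.6, pandas 2.3.3 and matplotlib 3.10.9.

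Alternatives were median scaling with no quantile step, quantile normalization to rank means or for TAB and sham apart, 50 added before log2, normexp with an offset of 50, probes below 1 set to 1, dim genes or probes left out, the brightest or the mean probe, no day block, trend and robust on, a slope on log2 day, a fixed log2 ratio of 1, the mean sham sample as reference, and each day left out. Raising spots not found to the 1st percentile of found spots before the quantile step was chosen after seeing the data, and so was the use of that percentile for bounds, because single found spots had raw values of 1 to 12. A block for slide or scan was not run, since the table names neither. The genes named are the 8 collagens, up to 4 called genes of each list with the lowest p and the uncalled gene with the largest effect, not all of which are printed, and the 6 genes most similar in profile. Others (Tcf21, Dpt, Tgfb1, Tgfb2, Il11, Myh6, Tnnt2, Myh11 and those behind small counts) were named after their values were seen. The collagens and all lists were chosen with earlier results of these data known. The promoter table held Col1a2, Col3a1, Col5a1, Col5a3 and Col11a1.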

Additional observations from a re-analysis of the deposited data

Results flagged for a closer look

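In 3 of 21 sets of 5 values checked for a sample far from the others, the TAB sample of day 28 stood apart as low on the log2 scale. The sets were the TAB intensities, the sham intensities and the log2 ratios of each of the 7 genes tested. For Col5a2 the gap from day 28 to the nearest TAB sample was 0.801 of the whole range of the 5 TAB samples. For Col3a1 it was 0.716, against a critical value of 0.71 for a flag. For Col11a1 it came out at 0.724, but its TAB spot of day 28 was not found and lay below the floor of its array. The size of that gap is therefore not known, and the flag of Col11a1 is not settled. Chance flags about 1 in 20 such sets. All 3 flags, with the unsettled flag of Col11a1 among them, fall on the same sample. The 5 values are of different days, so the check does not separate a deviating sample from a change with time. No sham sample and no log2 ratio of the 7 genes stood apart in this way.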

How the results depend on the processing

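The average effect of Col1a2, Col3a1, Col5a1, Col5a2, Col11a1 and Col2a1 kept its sign under the alternatives that gave it a value; Col11a1 and Col2a1 had none with the lowest tertile left out, and these and Col3a1 and Col5a1 none with probes not found left out. The average effect of Col5a3 turned to -0.0051 without day 5. Apart from the fits that leave out a day, the count of 5 called genes changed in 3 settings: to 4 of 5 tested with the lowest tertile left out, to 3 of 8 tested with probes below 1 set to 1 (Col5a1 at 2.47 and Col11a1 at 1.36 on the log2 scale lost their calls) and to 2 of 3 tested with probes not found on any 1 array left out, where fewer genes were tested, and which also gave 2 DE genes in place of 4 on days 3, 5 and 7, in place of 5 on day 14 and in place of 3 on day 28. The count ran from 0 to 5 with a day left out, and effects from 3.22 to 3.83 for Col1a2, 3.15 to 3.98 for Col3a1, 2.13 to 2.98 for Col5a1, 2.89 to 3.28 for Col5a2, -0.0051 to 0.18 for Col5a3, 1.23 to 1.66 for Col11a1 and 0.35 to 0.82 for Col2a1. The small stage difference of Col2a1 (-0.07) turned positive with the mean of each rank (0.00084), with 50 added (0.018), with normexp (0.030), with spots not found raised (0.18), and without day 3 (0.47) or day 14 (0.59). Without a day the stage difference of Col2a1 ran from -0.74 to 0.59, and that of Col11a1 from -0.46 (reversed, without day 28) to 1.26. It ran from 1.07 to 1.97 for Col1a2, 1.06 to 2.26 for Col3a1, 1.29 to 2.83 for Col5a1, 0.090 to 1.16 for Col5a2 and 0.31 to 0.52 for Col5a3. The cause was not tested. The fit without the replicate block of day also called 5 genes, and pairing by day changed no call of the 7 genes.

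Signal over background and the number of days both limit these values: Col1a1 was not measured, and the bounds for Col3a1, Col5a1, Col11a1 and Col2a1 rest on the flag and on the floor chosen for spots not found. Over all genes, calls ranged from 22 (without day 7) to 4469 (50 added).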
